A study of Homo sapiens with 6 samples.

Results

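Most human genes whose symbol is ZNF followed by a number encode zinc finger proteins, and 238 genes with such a symbol were expressed in ARPE-19 cells above a fixed array level. They were selected by name and by level: of 486 such genes with a probe set of a single gene symbol, each was read on its brightest probe set, judged by the mean of all 6 arrays, and those with a mean of at least 5.5 on the log2 scale were kept. A letter after the number was allowed, so the pseudogenes ZNF252P, ZNF271P and ZNF542P are among them. The levels chose the genes and are therefore given as a description. ARPE-19 is an established human retinal pigment epithelial line. Cells in 6-well plates received 2.5 µg per well of plasmid. In the SATalpha group the plasmid carried GFP with satellite alpha, a tandem repeat found at human centromeres, and in the control group it carried GFP. Both groups thus share the transfection, the GFP gene and the cell line, and each had 3 wells and 3 arrays. The question of the design is which transcripts differ when the transfected plasmid holds satellite alpha. The labels do not say whether the wells came from separate cultures, so the p-values reflect only how these wells varied, and part of that may be technical.

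Most human ZNF genes encode C2H2 zinc finger proteins, in which each finger folds around a zinc ion and reads a few bases of DNA. The largest class also carries a KRAB box, which binds the corepressor TRIM28 (KAP1). TRIM28 brings the histone H3 lysine 9 methyltransferase SETDB1 and the heterochromatin proteins HP1 to the bound site, and many of the DNA targets are repeats. The genes stand in clusters of young duplicates, above all on chromosome 19, and a smaller number of ZNF proteins have other work in transcription, RNA metabolism, ribosome assembly or mitosis.

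The starts of duplicated ZNF genes can still resemble each other, and 6 upstream sequences are shown because they belong to genes that the results below turn on. Each is the 250 bases before the annotated gene start, in the direction of transcription, from RefSeq (GRCh38.p14), in which 205 of the 238 genes matched an entry. Capitals mark matches on either strand to 5 short motifs. The letters CCAAT form the CCAAT box, a common element close to gene starts. The GC box, bound by SP1 and its relatives, is GGGCGG. Factors of the ETS family read the core CCGGAAG, and the last classical element, the TATA box, is TATAAA. The block CACTCAGG was added after the sequences were seen. A match is a run of letters and not a shown binding site. The first 3 belong to genes that were higher in SATalpha cells, of which ZNF708 and ZNF726 stand in one cluster of chromosome 19.
ZNF726 (chr19:23914636-23914885, plus strand): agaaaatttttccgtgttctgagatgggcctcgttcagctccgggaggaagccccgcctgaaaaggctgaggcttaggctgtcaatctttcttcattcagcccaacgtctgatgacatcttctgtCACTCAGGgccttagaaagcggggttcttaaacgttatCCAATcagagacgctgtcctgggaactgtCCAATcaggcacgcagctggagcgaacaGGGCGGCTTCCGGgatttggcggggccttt
ZNF92 (chr7:65373605-65373854, plus strand): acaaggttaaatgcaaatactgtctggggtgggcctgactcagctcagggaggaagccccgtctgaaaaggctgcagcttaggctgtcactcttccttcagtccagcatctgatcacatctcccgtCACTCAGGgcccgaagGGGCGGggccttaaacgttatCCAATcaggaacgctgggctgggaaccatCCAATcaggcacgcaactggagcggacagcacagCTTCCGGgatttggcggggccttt
ZNF708 (chr19:21329411-21329660, minus strand): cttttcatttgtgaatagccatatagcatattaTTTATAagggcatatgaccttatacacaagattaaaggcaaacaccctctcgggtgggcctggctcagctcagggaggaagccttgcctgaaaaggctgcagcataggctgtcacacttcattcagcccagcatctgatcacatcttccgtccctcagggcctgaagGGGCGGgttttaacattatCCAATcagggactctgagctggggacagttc
The next belongs to the ZNF-named gene with the largest decrease.
ZNF670 (chr1:247078812-247079061, minus strand): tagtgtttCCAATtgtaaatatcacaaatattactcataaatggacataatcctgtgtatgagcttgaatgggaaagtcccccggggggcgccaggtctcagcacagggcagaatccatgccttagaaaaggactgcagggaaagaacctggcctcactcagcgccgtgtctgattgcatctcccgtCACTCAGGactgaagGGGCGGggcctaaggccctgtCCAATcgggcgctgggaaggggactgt
The last pair belongs to near neighbours on chromosome 19, of which ZNF551 was higher and ZNF671 lower.
ZNF551 (chr19:57681727-57681976, plus strand): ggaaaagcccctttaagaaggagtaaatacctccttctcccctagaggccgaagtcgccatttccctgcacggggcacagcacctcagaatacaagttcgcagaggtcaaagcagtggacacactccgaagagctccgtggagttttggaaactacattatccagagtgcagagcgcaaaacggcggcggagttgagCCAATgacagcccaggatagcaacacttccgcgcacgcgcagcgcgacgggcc
ZNF671 (chr19:57727625-57727874, minus strand): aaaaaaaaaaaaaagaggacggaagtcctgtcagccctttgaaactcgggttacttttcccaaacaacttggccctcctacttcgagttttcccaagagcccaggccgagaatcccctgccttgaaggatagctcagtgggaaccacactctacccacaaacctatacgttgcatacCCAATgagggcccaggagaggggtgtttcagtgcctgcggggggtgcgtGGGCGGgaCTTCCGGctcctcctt

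ZNF726 and ZNF92 lie on different chromosomes, yet the longest run of letters common to their windows was 25 bases and included the ETS core. ZNF92 and ZNF708 shared a run of 20 bases. The window of ZNF670 shared 18 bases with that of ZNF92, around the block CACTCAGG, although ZNF670 moved in the opposite direction. The neighbours ZNF551 and ZNF671 shared no run longer than 8 bases. In ZNF726 the GC box and the ETS core stood side by side without overlap.

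Per array the median level of the 238 genes was 6.62, 6.60 and 6.68 in SATalpha cells, against 6.77, 6.68 and 6.70 in GFP cells. All 3 SATalpha arrays were below the 3 GFP arrays, and the highest SATalpha value lay next to the lowest GFP value. Over all 10879 tested genes the medians were 7.48, 7.46 and 7.51 in SATalpha cells, against 7.54, 7.54 and 7.51 in GFP cells, so the tested genes as a whole also had lower medians on 2 of 3 SATalpha arrays. Arrays correlated at 0.996 to 0.998 within groups and at 0.995 to 0.996 between groups. The difference between 3′ and 5′ GAPDH control probe sets, a measure of RNA integrity, was 0.346, 0.364 and 0.471 in SATalpha cells and 0.432, 0.406 and 0.342 in GFP cells, and these overlapped. Of 13 markers of retinal pigment epithelium, 5 (RPE65, BEST1, RLBP1, TYRP1 and TTR) were under the floor of the tested genes, while MITF (8.06 in SATalpha and 8.15 in GFP cells) and OTX2 (8.32 in SATalpha and 8.37 in GFP cells) were well above it. The keratins of that list were lower in SATalpha cells. KRT8 averaged 11.35 in SATalpha and 11.48 in GFP cells (limma adjusted p = 0.0266, which passed in 2 of 6 fits with 1 array left out). With the mean of all its probe sets KRT8 differed by -0.028 (limma adjusted p = 0.834). With arrays centred on the median of the tested genes its limma adjusted p was 0.151. KRT18 had 12.03, 11.95 and 12.03 in SATalpha cells, against 12.23, 12.19 and 12.23 in GFP cells (limma adjusted p = 0.000675). Of the 8 tested markers of that list, 6 were below 0. EZR (11.05 in SATalpha and 10.96 in GFP cells) and PMEL (5.79 in SATalpha and 5.70 in GFP cells) were above it, and limma called neither. Summed over the 13 markers the level was 92.3 to 92.9 in SATalpha arrays and 93.0 to 93.3 in GFP arrays. Of markers of other cells, 5 of 7 fibroblast, 3 of 4 immune, 2 of 5 neuron and photoreceptor and 1 of 4 endothelium genes were under the floor. Summed fibroblast markers were 36.3 to 36.7 in SATalpha and 36.6 to 37.0 in GFP arrays, immune ones 18.8 to 18.9 in SATalpha and 18.9 to 19.5 in GFP arrays, neuron and photoreceptor ones 30.9 to 31.6 in SATalpha and 31.5 to 31.7 in GFP arrays, and endothelium ones 19.2 to 19.9 in SATalpha and 19.2 to 19.7 in GFP arrays. Of the markers tested in these 4 lists, limma called TUBB3, a neuronal tubulin, which averaged 9.92 in SATalpha and 10.29 in GFP cells (difference -0.37, limma adjusted p = 1.77e-05). The part of these marker differences in the results was not tested.

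**Figure D1:**
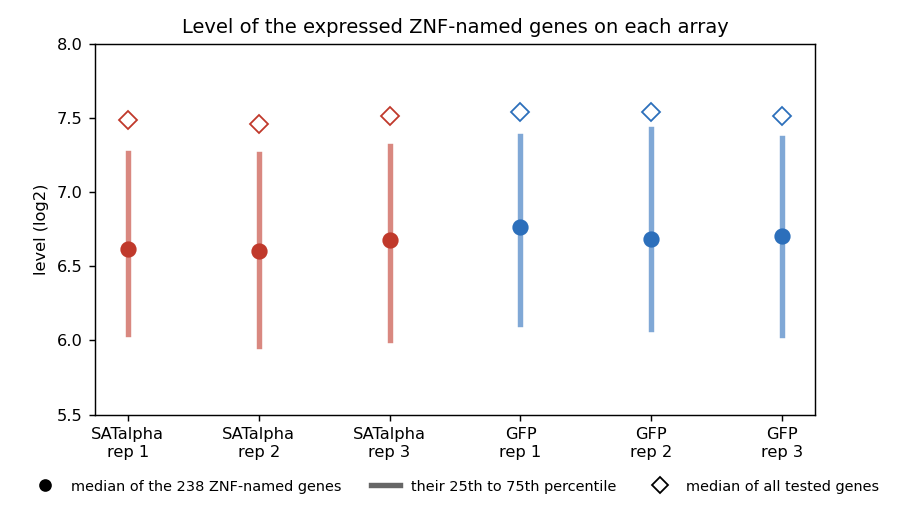
Level on the log2 scale (y axis) of the 238 ZNF-named genes on each array (x axis, SATalpha arrays left), with filled points for their median, lines for their 25th to 75th percentile and open diamonds for the median of all 10879 tested genes. The ZNF-named medians are 6.60 to 6.68 in SATalpha arrays and 6.68 to 6.77 in GFP arrays.

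More ZNF-named genes were lower than higher in SATalpha cells. Of the 238 genes, 53 (22.3%) were lower, 17 (7.14%) were higher and 168 did not pass a limma adjusted p of 0.05 over all tested genes. Among all tested genes, 13.0% were lower and 7.72% higher, and among those with a mean of at least 5.5 the shares were 13.7% and 8.18%. The share of higher calls was thus near the background, and the share of lower calls was above it. The median log2 difference of the ZNF-named genes was -0.063, beside -0.025 for all tested genes, and 152 (63.9%) were below 0, beside 57.7% of all tested genes. In 74 ZNF-named genes (31.1%) every SATalpha array was under every GFP array, beside 23.2% of all tested genes, and in 32 (13.4%) every one was above, beside 14.4%. In an array of whole-well RNA, a change in the mix of cells and a change of RNA per cell cannot be told apart.

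The differences were small. Among the called ZNF-named genes the median size was 0.288 on the log2 scale, the smallest called difference was 0.153, and a change of at least 1.5-fold was reached by 1 gene that was higher (ZNF726) and 1 that was lower (ZNF670). The median standard error (SE) of a difference was 0.077. Of the 70 called genes, 28 passed with each of the 6 arrays left out in turn, 22 of them lower and 6 higher. Lower calls numbered 28 without GFP replicate 2, 29 without GFP replicate 1 and 33 without SATalpha replicate 1, and higher calls 7 without SATalpha replicate 1, 7 without GFP replicate 1 and 8 without GFP replicate 3. When each array was centred on the median of its tested genes, an alternative chosen after seeing the data, 34 ZNF-named genes (14.3%) were lower and 26 (10.9%) higher, their median was -0.017, and 8.26% of all tested genes were lower and 12.3% higher. Under both scalings the ZNF-named genes had a larger share of lower calls than all tested genes, a gap that was not tested, while the balance of lower to higher calls depended on the scaling.

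**Figure D2:**
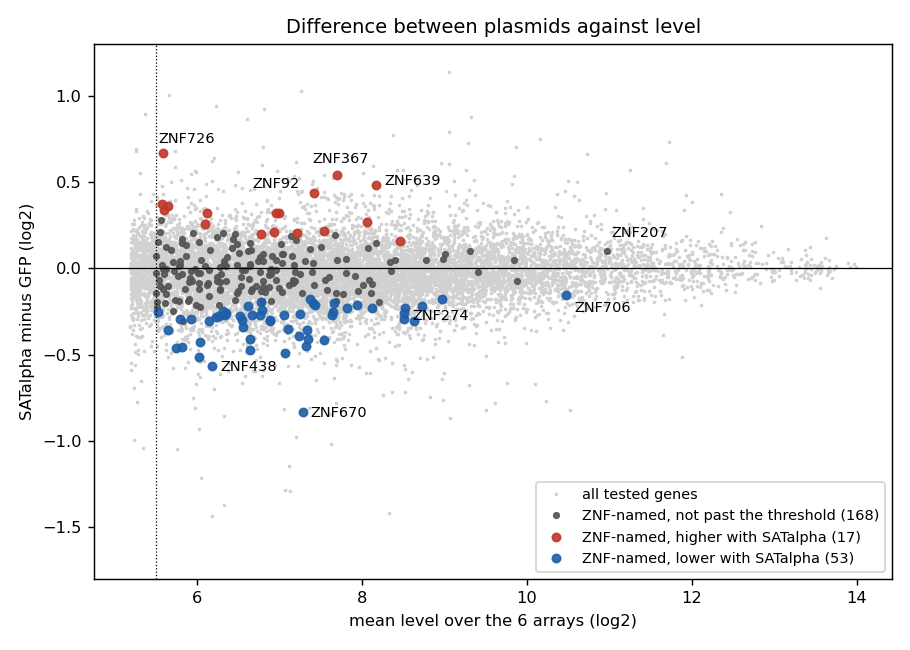
Difference between SATalpha and GFP cells on the log2 scale (y axis) against the mean level over 6 arrays (x axis, log2), with all tested genes in grey and the ZNF-named genes coloured by their call. The 53 lower genes reach -0.83 (ZNF670) and the 17 higher ones 0.67 (ZNF726), and the dotted line is the level of 5.5 that chose the genes.

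Levels of the 238 genes ran between 5.504 and 10.97 with a median of 6.65, under the median of 7.51 for all tested genes. Dim genes have larger errors, so shares of calls were set beside those of genes of like level. Between 5.5 and 6.5, 14.7% of 102 ZNF-named genes were lower and 5.88% higher, beside 8.25% and 4.21% of 2304 tested genes. Between 6.5 and 7.5, 27.9% of 86 were lower and 6.98% higher, beside 14.5% and 5.66% of 2366. At 7.5 and above, 28% of 50 were lower and 10% higher, beside 15.6% and 10.9% of 5458. In all 3 ranges the share of lower calls was larger among the ZNF-named genes, and the share of higher calls was close to that of all tested genes. With arrays centred on the tested genes lower shares in the 3 ranges were 7.84%, 19.8% and 18% of ZNF-named genes, beside 5.03%, 9.13% and 9.97% of tested genes of like level, and higher shares were 8.82%, 10.5% and 16%, beside 6.42%, 8.92% and 17.6%.

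**Figure D3:**
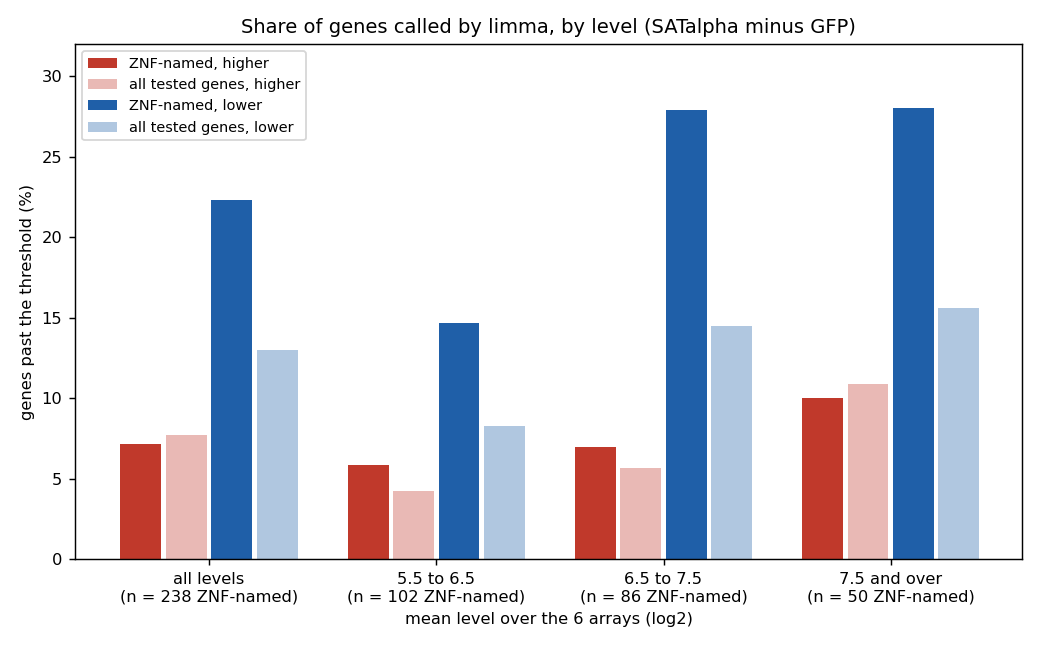
Percentage of genes past the limma threshold (y axis) in ranges of mean level (x axis, log2), full colour for the ZNF-named genes and pale colour for all tested genes, with higher and lower calls in separate bars. Lower calls make up 14.7% to 28% of the ZNF-named genes in the 3 ranges and 8.25% to 15.6% of all tested genes.

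The genes at the cutoff were ZNF318 (mean 5.504), ZNF605 (5.507) and ZNF385A (5.507) just inside, and ZNF184 (5.498), ZNF565 (5.496) and ZNF594 (5.493) just outside. ZNF184 averaged 5.21 in SATalpha cells and 5.79 in GFP cells, a difference of -0.58. Of the 238 genes, 223 had both group means at 5.5 or more, and 51 of these were lower and 13 higher. The other 15 passed the cutoff through 1 group: 8 had a GFP mean under it, of which 4 were called higher, and 7 had a SATalpha mean under it, of which 2 were called lower. Of the 248 ZNF-named genes under the cutoff, 45 were bright enough to be tested. Of these, limma called 4 lower and 0 higher, and at an unadjusted p of 0.05 there were 10 lower and 2 higher, while an unmoderated test called 2 lower and 0 higher after adjustment. Over all tested genes the unadjusted p gave 21.0% lower and 13.0% higher, and the unmoderated test 4.33% lower and 2.26% higher.

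The 10 largest decreases and the 10 largest increases were taken from called genes whose groups did not overlap. That their groups lie apart was therefore set by the choice. The largest decrease was that of ZNF670, a KRAB zinc finger gene of chromosome 1. Its levels were 6.83, 6.81 and 6.94 in SATalpha cells, against 7.65, 7.72 and 7.72 in GFP cells. Every SATalpha array was far below every GFP array, with means of 6.86 ± 0.071 in SATalpha and 7.70 ± 0.038 in GFP cells (SD, n = 3 each). The log2 difference was -0.83 (SE 0.061, limma adjusted p = 6.53e-07), a level 0.561 times that of GFP cells.

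ZNF438, a zinc finger gene of chromosome 10, had 5.94, 5.80 and 5.96 in SATalpha cells, against 6.55, 6.55 and 6.30 in GFP cells. The difference was -0.57 (SE 0.087, limma adjusted p = 0.000501). ZNF133, a KRAB-containing repressor, had 5.82, 5.54 and 5.94 in SATalpha cells, against 6.32, 6.21 and 6.31 in GFP cells. The groups of both genes lay apart by the rule that chose them, with the wider spread of ZNF133 on the SATalpha side. ZNF23, also a KRAB gene, had 6.90, 6.81 and 6.75 in SATalpha cells, against 7.29, 7.42 and 7.24 in GFP cells. ZNF697 had 6.36, 6.28 and 6.57 in SATalpha cells, against 6.81, 7.002 and 6.82 in GFP cells. The log2 differences were -0.52 for ZNF133, -0.49 for ZNF23 and -0.48 for ZNF697, with limma adjusted p of 0.00221, 0.000264 and 0.00159.

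The KRAB genes ZNF2, ZNF671, ZNF79 and ZNF627, with ZNF76, an activator of promoters, completed the 10 largest decreases. ZNF2 had 5.46, 5.59 and 5.49 in SATalpha cells, against 6.19, 5.90 and 5.84 in GFP cells. Its dimmer probe sets, with means of 4.33 and 3.87, gave 0.22 and -0.46 (limma adjusted p = 0.322 and 0.0189 over all probe sets). ZNF671 had 7.02, 7.11 and 7.15 in SATalpha cells, against 7.67, 7.47 and 7.48 in GFP cells. By the rule that chose them, no array of one group reached into the other for either gene. ZNF79 had 5.84, 5.71 and 5.93 in SATalpha cells, against 6.31, 6.30 and 6.15 in GFP cells. ZNF627 had 7.26, 7.31 and 7.43 in SATalpha cells, against 7.68, 7.86 and 7.71 in GFP cells. As the choice required, the groups of these also lay apart. The differences were -0.46 for ZNF2, -0.45 for ZNF671, -0.43 for ZNF79 and -0.41 for ZNF627. All 10 passed the threshold with each array left out in turn. Outside the genes named by rule, another 34 ZNF-named genes were lower, by -0.41 to -0.18.

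The largest increase was that of ZNF726, a KRAB gene of the chromosome 19 cluster. Its levels were 5.99, 6.01 and 5.76 in SATalpha cells, against 5.26, 5.55 and 4.94 in GFP cells. The groups did not overlap, as the choice required. The GFP arrays spread widely, and their mean of 5.25 ± 0.31 (SD, n = 3) was under the level that chose the genes. The difference was 0.67 (SE 0.13, limma adjusted p = 0.00294), or 1.59-fold. The probe set carries a name that the array's maker gives to sets whose probes can match several transcripts, so signal from ZNF726 and from related ZNF transcripts cannot be told apart in it.

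ZNF367, a zinc finger factor without a KRAB box, had 8.11, 7.91 and 7.89 in SATalpha cells, against 7.34, 7.56 and 7.40 in GFP cells. ZNF639, known as ZASC1, had 8.60, 8.42 and 8.23 in SATalpha cells, against 7.89, 7.92 and 7.98 in GFP cells. ZNF92, the KRAB gene whose upstream sequence resembles that of ZNF726, had 7.67, 7.70 and 7.55 in SATalpha cells, against 7.18, 7.15 and 7.28 in GFP cells. The groups of these genes did not overlap, as the choice required. The differences were 0.54 (SE 0.073), 0.49 (SE 0.075) and 0.43 (SE 0.063), with limma adjusted p of 0.000177, 0.000532 and 0.00034. ZNF789, also a KRAB gene, was higher by 0.32, with 7.18, 7.02 and 7.14 in SATalpha cells, against 6.82, 6.77 and 6.80 in GFP cells. These, ZNF726 and ZNF503 were the 6 higher genes that passed with every array left out in turn.

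The other 5 of the 10 largest increases rested on fewer arrays. ZNF442, a KRAB gene, had 5.96, 5.51 and 5.80 in SATalpha cells, against 5.31, 5.40 and 5.46 in GFP cells. ZNF551 had 5.77, 5.91 and 5.80 in SATalpha cells, against 5.28, 5.51 and 5.61 in GFP cells. ZNF708 had 5.93, 5.58 and 5.80 in SATalpha cells, against 5.54, 5.44 and 5.33 in GFP cells. The nearest arrays of the groups came close to each other in all 3 genes, and their GFP means of 5.39, 5.47 and 5.44 were under the level that chose the genes. Their differences were 0.37, 0.36 and 0.34, and the limma adjusted p was between 0.0177 and 0.0328. ZNF442 lost the call without GFP replicate 1, GFP replicate 2 or SATalpha replicate 1 (adjusted p 0.072 to 0.141), and ZNF551 without GFP replicate 1 or SATalpha replicate 2 (0.0568 to 0.0972). ZNF708 kept it in 1 of the 6 fits, the one without SATalpha replicate 2, and had adjusted p of 0.0506 to 0.152 in the other 5. ZNF256 was higher by 0.32, with 6.39, 6.07 and 6.37 in SATalpha cells, against 5.97, 6.02 and 5.89 in GFP cells, and kept the call without SATalpha replicate 2 or GFP replicate 2, with adjusted p of 0.0553 to 0.117 in the other 4 fits. Outside the genes named by rule, another 4 ZNF-named genes were higher, by 0.20 to 0.21.

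**Figure D4:**
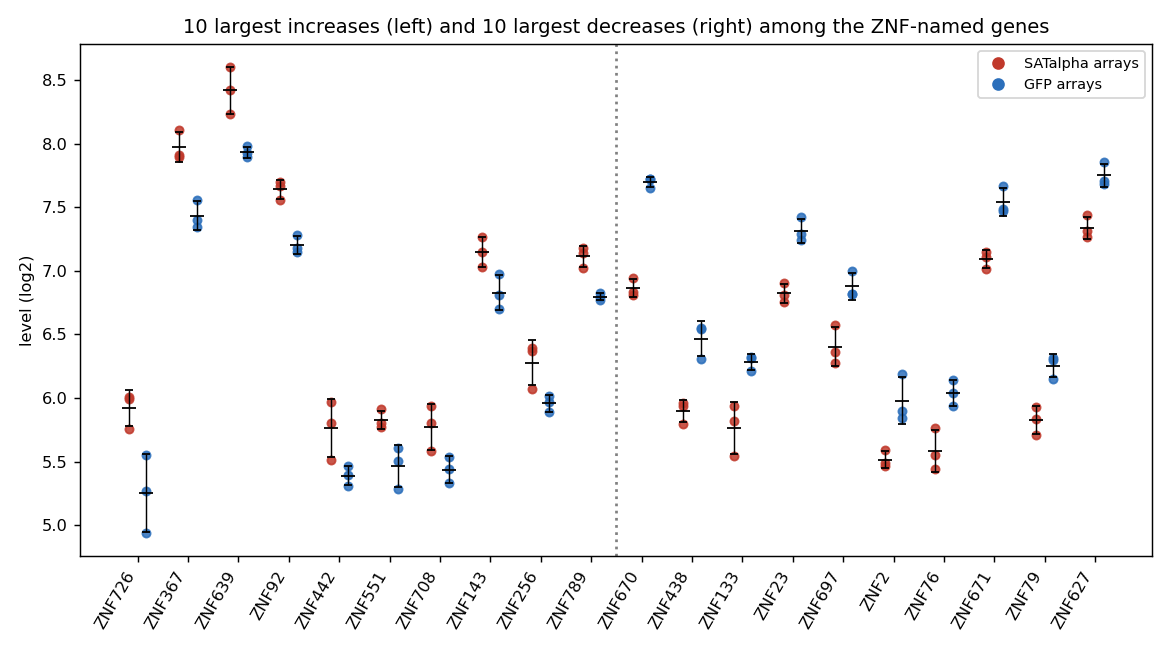
Level on the log2 scale (y axis) of the 10 ZNF-named genes with the largest increases and the 10 with the largest decreases (x axis), one point per array, SATalpha arrays left of GFP arrays, with bars for the mean and SD (n = 3). The 20 genes were chosen among called genes whose groups did not overlap, so the separation of their points was set by that choice. ZNF670 shows the widest gap, with means of 6.86 in SATalpha and 7.70 in GFP cells.

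ZNF143 and ZNF76, paralogs that activate promoters of small nuclear RNA and protein-coding genes, moved in opposite directions. ZNF143 had 7.27, 7.03 and 7.15 in SATalpha cells, against 6.81, 6.97 and 6.70 in GFP cells, a difference of 0.32 (SE 0.081, limma adjusted p = 0.0131). It lost the call without SATalpha replicate 1, GFP replicate 1 or GFP replicate 3, with limma adjusted p of 0.0546 to 0.0756. ZNF76 had 5.44, 5.55 and 5.76 in SATalpha cells, against 6.14, 6.04 and 5.94 in GFP cells, a difference of -0.45 (SE 0.097, limma adjusted p = 0.00476). With the mean of all its probe sets the difference of ZNF76 was -0.088 (limma adjusted p = 0.464).

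Among 21 expressed ZNF-named regulators of transcription, from a list of 27, 5 were lower (23.8%) and 2 higher (9.52%). These shares stand beside 22.3% and 7.14% of the 238 genes and 13.0% and 7.72% of all tested genes. No list was tested against them. The median difference was -0.004, which turned to 0.003 under quantile normalization. With arrays centred on the tested genes it was 0.042, and 2 were lower and 3 higher, beside 8.26% and 12.3% of all tested genes. ZNF644, a partner of the H3 lysine 9 methyltransferases G9a and GLP, had 8.39, 8.35 and 8.35 in SATalpha cells, against 8.78, 8.58 and 8.61 in GFP cells, a difference of -0.29. ZNF410, an activator of the gene for the remodeller CHD4, had 8.91, 8.90 and 8.85 in SATalpha cells, against 9.08, 9.02 and 9.08 in GFP cells, a difference of -0.18. In both genes the SATalpha arrays were tightly grouped under the GFP arrays, and ZNF410 lost the call without GFP replicate 1 (limma adjusted p = 0.066). CHD4 itself averaged 8.28 in SATalpha cells and 8.34 in GFP cells, which did not pass. ZNF503, a corepressor of the NET family, was the other higher gene of the list, with 8.10, 8.23 and 8.27 in SATalpha cells, against 7.92, 7.97 and 7.90 in GFP cells (difference 0.27, limma adjusted p = 0.00461).

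Of 13 ZNF-named genes listed for silencing of repeats or imprints, 5 were expressed above 5.5. Of these, 2 were lower (40%) and 1 higher (20%), beside 13.0% and 7.72% of all tested genes. ZNF274, a KRAB protein that recruits SETDB1 to the 3′ ends of ZNF genes, had 8.36, 8.41 and 8.37 in SATalpha cells, against 8.54, 8.71 and 8.66 in GFP cells. The SATalpha arrays agreed closely and lay under all GFP arrays, and the difference was -0.26 (SE 0.053, limma adjusted p = 0.0036). A dimmer probe set of ZNF274, the brightest left when sets that can match several transcripts were removed, gave -0.057 (limma adjusted p = 0.758). ZNF382, a KRAB repressor, had 5.88, 5.82 and 5.63 in SATalpha cells, against 6.10, 5.98 and 6.14 in GFP cells. Its difference was -0.30, and the call was lost without SATalpha replicate 3, GFP replicate 1 or GFP replicate 3 (limma adjusted p 0.0825 to 0.107). ZNF512 had 8.49, 8.56 and 8.59 in SATalpha cells, against 8.36, 8.45 and 8.35 in GFP cells, a difference of 0.16 (limma adjusted p = 0.0387) that kept the call in 1 of 6 fits, the one without GFP replicate 2, with adjusted p of 0.0508 to 0.144 in the other 5. ZNF91, a KRAB protein that silences SVA retrotransposons, was under the level that chose the genes, with 5.47, 5.21 and 5.15 in SATalpha cells, against 5.66, 5.64 and 5.497 in GFP cells. Its difference was -0.32 (limma adjusted p = 0.0371), and it kept the call without SATalpha replicate 1 or GFP replicate 3, with adjusted p of 0.086 to 0.142 in the other 4 fits.

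All 12 ZNF-named genes listed for RNA and ribosome work were expressed, and 3 were lower and 0 higher by limma, with a median difference of -0.14. The lower share of 25% stands beside 22.3% of the 238 genes and 13.0% of all tested genes. At an unadjusted p of 0.05 there were 5 lower and 0 higher, beside 21.0% and 13.0% of all tested genes. The unmoderated test called 0 in either direction after adjustment. ZNF330, a nucleolar protein, had 8.55, 8.42 and 8.45 in SATalpha cells, against 8.78, 8.85 and 8.71 in GFP cells, a difference of -0.31 (SE 0.053, limma adjusted p = 0.00129) that passed with every array left out. ZNF346, which binds double-stranded RNA, had 6.68, 6.60 and 6.92 in SATalpha cells, against 7.08, 7.04 and 6.98 in GFP cells. One SATalpha array stood close to the GFP arrays, and the difference of -0.30 (limma adjusted p = 0.0193) kept the call without SATalpha replicate 3 or GFP replicate 3 (adjusted p 0.0572 to 0.092 in the other 4 fits) and was 0.003 with the mean of all its probe sets. ZNF706, a small protein with a zinc finger, was among the brightest and had 10.37, 10.42 and 10.40 in SATalpha cells, against 10.54, 10.60 and 10.51 in GFP cells. Its difference of -0.15 lost the call without SATalpha replicate 1 or GFP replicate 2 (limma adjusted p 0.0645 and 0.0653). ZNF593 and ZNF622, whose yeast relatives act in assembly of the large ribosomal subunit, differed by -0.021 and 0.047 and did not pass, and the sign of ZNF593 turned (0.025) with arrays centred on the tested genes.

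Of 8 expressed genes listed for mitosis and genome maintenance, 2 were lower (25%) and 1 higher (12.5%), beside 13.0% and 7.72% of all tested genes. The median difference was 0.094. With arrays centred on the tested genes it was 0.14, with 2 lower and 3 higher, beside 8.26% and 12.3% of all tested genes. ZNF207 (BuGZ), which carries the checkpoint protein BUB3 to kinetochores, had the highest level of all the ZNF-named genes, with 11.01, 11.09 and 10.96 in SATalpha cells, against 10.91, 10.93 and 10.92 in GFP cells. Every SATalpha array was above every GFP array, but the difference of 0.10 (SE 0.040, limma adjusted p = 0.0896) did not pass, except without SATalpha replicate 3 (adjusted p = 0.0194), with array weights (0.031) or with arrays centred on the tested genes (0.0446). ZNF451, a SUMO ligase, had 7.12, 6.90 and 7.12 in SATalpha cells, against 7.46, 7.49 and 7.35 in GFP cells (difference -0.39, limma adjusted p = 0.00182). A dimmer probe set of ZNF451 gave 0.27 (limma adjusted p = 0.0674) once sets open to cross-matching were dropped, so the direction of this gene depends on the probe set. ZNF212, a KRAB gene, had 6.35, 6.44 and 6.499 in SATalpha cells, against 6.83, 6.84 and 6.86 in GFP cells, and the difference of -0.41 passed with every array left out. ZNF830 was higher by 0.25, with 6.23, 6.27 and 6.17 in SATalpha cells, against 6.02, 6.05 and 5.85 in GFP cells, and kept the call in 1 of 6 fits, the one without SATalpha replicate 3, with limma adjusted p of 0.0519 to 0.141 in the other 5.

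Of the bright genes outside these lists, ZNF146, whose protein consists almost wholly of zinc fingers, had a mean level of 9.88. It had 9.93, 9.80 and 9.80 in SATalpha cells, against 9.95, 9.89 and 9.90 in GFP cells, and its groups overlapped. Of the 5 brightest ZNF-named genes, only ZNF706 passed the threshold.

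The genes for the proteins through which KRAB zinc fingers act were read beside them. Of 38 genes on a list of the KRAB corepressor pathway, 35 were tested, and limma called 4 lower (11.4%, beside 13.0% of all tested genes) and 0 higher. At an unadjusted p of 0.05 there were 11 lower and 3 higher, beside 21.0% and 13.0% of all tested genes. The unmoderated test called 1 lower and 0 higher after adjustment, beside 4.33% and 2.26%. Without SATalpha replicate 3 there were 6 lower and 3 higher, beside 1622 lower and 898 higher of all 10879 tested genes. The median difference was -0.048. With arrays centred on the tested genes it was -0.003, with 3 lower and 3 higher calls, beside 8.26% and 12.3% of all tested genes. TRIM28, the corepressor itself, had 8.25, 8.31 and 8.35 in SATalpha cells, against 8.36, 8.20 and 8.29 in GFP cells, and the groups overlapped (difference 0.018, SE 0.055, limma adjusted p = 0.857, with a sign that turned in 3 alternatives). SETDB1 had 6.03, 6.17 and 6.22 in SATalpha cells, against 6.26, 6.26 and 6.28 in GFP cells (difference -0.13, limma adjusted p = 0.25).

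The genes of that list that were lower were SETDB2, CBX3, SMARCAD1 and EHMT2. SETDB2, a relative of SETDB1, had 5.85, 5.46 and 5.63 in SATalpha cells, against 6.36, 6.39 and 6.21 in GFP cells, a difference of -0.67 (SE 0.10, limma adjusted p = 0.000399). CBX3, the HP1 gamma protein, had 10.94, 10.88 and 10.86 in SATalpha cells, against 11.11, 11.04 and 11.07 in GFP cells, a difference of -0.18. Both passed with every array left out. SMARCAD1, a chromatin remodeller that binds TRIM28, had 7.69, 7.69 and 7.73 in SATalpha cells, against 7.93, 7.91 and 7.90 in GFP cells, and its difference of -0.21 lost the call without GFP replicate 1 (limma adjusted p = 0.0596). EHMT2, the methyltransferase G9a, had 5.38, 5.31 and 5.34 in SATalpha cells, against 5.55, 5.65 and 5.73 in GFP cells, and its difference of -0.30 kept the call without SATalpha replicate 3 or GFP replicate 1 (adjusted p 0.0544 to 0.0996 in the other 4 fits).

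Several probe sets of one gene measure the same RNA with other probes. The array held 646 probe sets for the 238 genes, 61 genes had a single one and 177 had several. The 48 called genes with several probe sets had 118 further ones, of which 82 had the same sign as the brightest. Past a limma adjusted p of 0.05 over all probe sets of a single symbol, where 4.37% were lower and 4.23% higher, 17 of the 118 had the same sign and 1 the opposite sign. Of the 53 further probe sets with a mean of at least 5.5, 43 had the same sign. ZNF639 was an example, since its probe sets with means of 8.17, 8.15 and 8.09 gave 0.49, 0.36 and 0.30. ZNF726, ZNF92, ZNF670, ZNF438 and ZNF143 had no second probe set. Of the 39 genes whose brightest set was of the kind that may cross-match (name ending x_at), 4 were higher (10.3%) and 5 lower (12.8%). Of the 34 ending s_at, for sets shared by transcripts of a gene or family, 2 were higher (5.88%) and 13 lower (38.2%). Among all tested genes 7.72% were higher and 13.0% lower, and among the 238 genes 7.14% and 22.3%. Whether the kinds of probe set differ was not tested.

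By position the ZNF-named genes were spread over 20 chromosomes, with 106 on chromosome 19. Of those 106, 21 were lower and 8 higher, with a median difference of -0.030, and with arrays centred on the tested genes 13 were lower and 10 higher, with a median of 0.015. Of the 132 on other chromosomes, 32 were lower and 9 higher, with a median of -0.070, and under that centring 21 were lower and 16 higher, with a median of -0.024. The 675 tested genes of chromosome 19 that were not among the 238 had 11.1% lower and 3.41% higher calls and a median of -0.025. Tested ZNF-named genes with a mean under 5.5 were not taken out of that set. Chromosome 16 held 22 ZNF-named genes, of which 6 were lower and 0 higher by limma, with 8 lower and 2 higher at an unadjusted p of 0.05 and 1 lower and 0 higher by the unmoderated test. With arrays centred on the tested genes 3 of them were lower and 2 higher. Of the 12 on chromosome 1, 5 were lower and 0 higher, with a median of -0.16 and 4 lower and 0 higher under that centring. At an unadjusted p of 0.05 these 12 had 6 lower and 0 higher, and the unmoderated test called 2 lower and 0 higher. Chromosome 12 held 10, of which limma called 0, with 2 lower and 0 higher at an unadjusted p of 0.05 and 0 by the unmoderated test. Over all tested genes limma called 13.0% lower and 7.72% higher, and an unadjusted p of 0.05 gave 21.0% and 13.0%. With arrays centred on the tested genes, limma called 8.26% of them lower and 12.3% higher.

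Clusters were read from the RefSeq gene order (GRCh38.p14) as runs in which at most 2 other protein-coding genes separated one ZNF-named gene from the next. In all, 12 such runs held at least 5 expressed genes each, 102 in all, of which 23 were lower (22.5%) and 7 higher (6.9%). Of the 136 genes outside them, 30 were lower (22.1%) and 10 higher (7.4%), beside 13.0% and 7.72% of all tested genes. In the run on chromosome 7 between ZNF398 and ZNF467, all 6 expressed genes were below 0 and ZNF212, ZNF282 and ZNF746 were lower, with a median of -0.20. In the run on chromosome 16 between ZNF768 and ZNF689, ZNF747, ZNF688 and ZNF689 were lower, of which 1 remained lower when arrays were centred on the tested genes. In the run on chromosome 19 between ZNF626 and ZNF726, 6 of 7 expressed genes were above 0 with a median of 0.17, and ZNF708 and ZNF726 were higher. These 2 and ZNF738 had GFP means under 5.5 and entered through their SATalpha level, so the count and median lean on that choice. Between ZNF626 and ZNF726 stood 27 ZNF-named genes, of which 12 were measured under the level that chose the genes and 8 had no probe set of a single symbol. The ZNF649 to ZNF331 run held 15 expressed genes, of which limma called 0 (1 higher with arrays centred on the tested genes), with 2 higher and 1 lower at an unadjusted p of 0.05 and 0 by the unmoderated test. Over all tested genes 8.26% were lower and 12.3% higher with that centring, and 21.0% and 13.0% at an unadjusted p of 0.05. The runs and the genes named in them for their position were chosen after their values were seen.

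The run with the most expressed genes, between ZNF264 and ZNF8 on chromosome 19, had 20, of which 6 were lower and 3 higher. Among all tested genes 13.0% were lower and 7.72% higher, and among the 238 genes 22.3% and 7.14%. The run was not tested against these shares. ZNF551, at 0.36, and ZNF671, at -0.45, stood in it with a single ZNF-named gene, ZNF154, between them. ZNF274 was in the same run.

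**Figure D5:**
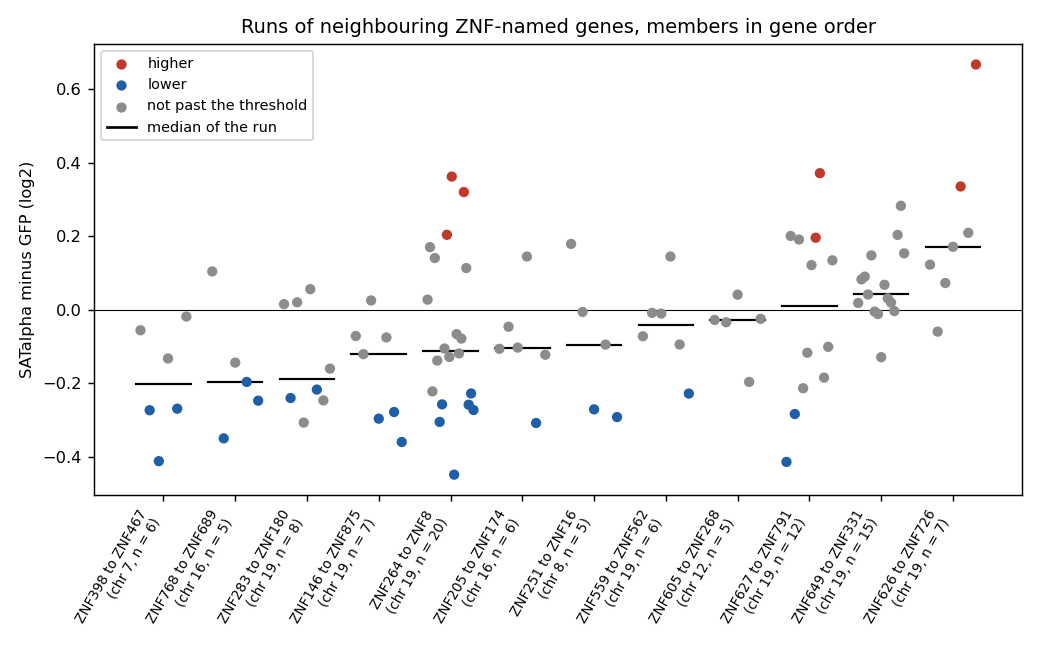
Difference between SATalpha and GFP cells on the log2 scale (y axis) for the expressed genes of 12 runs of neighbouring ZNF-named genes (x axis), in gene order within each run, coloured by call, with a line at the median of the run. Medians lie between -0.20 in the chromosome 7 run and 0.17 in the run that ends at ZNF726.

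Upstream sequences were compared as letters only. A CCAAT box was present in 43.4% of the 205 matched ZNF-named genes and in 33.0% of all 27305 RefSeq windows of the same length. For other motifs the shares were 67.3% and 42.3% for the GC box, 30.7% and 8.82% for the ETS core, 7.32% and 2.64% for ACTACAA, the core of the ZNF143 motif, and 4.88% and 6.49% for the E-box CACGTG. The TATA box was in 1.95% of the ZNF-named windows and 11.1% of all. Among tested genes the shares were 35.2% for the CCAAT box, 67.7% for the GC box, 16.2% for the ETS core, 3.55% for ACTACAA, 9.11% for the E-box and 5.64% for the TATA box. By call, the CCAAT box was in 12 of 17 higher genes, 20 of 47 lower genes and 57 of 141 not past the threshold. In the same order the counts were 15, 29 and 94 for the GC box and 6, 14 and 43 for the ETS core. They were 1, 6 and 8 for ACTACAA, 2, 2 and 6 for the E-box, and 1, 1 and 2 for the TATA box. These counts were not tested. The block CACTCAGG was in 14 ZNF-named windows (6.83%), 1.37% of tested genes and 1.32% of all windows, and in 4 of 17 higher, 2 of 47 lower and 8 of 141 other genes. The 4 higher genes with the block were ZNF35, ZNF143, ZNF92 and ZNF726, and the 2 lower ones ZNF670 and ZNF627, named here after their values were seen. The block was picked from windows shown for their calls, and ZNF726, ZNF92 and ZNF670 among these are counted again. Its counts by call are thus partly set by that choice and were not tested.

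Other families with zinc fingers were read at the same level of 5.5. Of 23 ZBTB genes, whose proteins pair the fingers with a BTB domain, 4 were lower and 5 higher, with a median of -0.011 that turned to 0.035 with arrays centred on the tested genes. Of 8 ZSCAN genes, with a SCAN domain, 1 was lower and 0 higher by limma, with a median of -0.13, and at an unadjusted p of 0.05 there were 4 lower and 0 higher, with 1 lower by the unmoderated test. Of 7 ZFP genes, 1 was higher and 0 lower, with a median of -0.082 and 6 of 7 below 0, and there was 1 lower at an unadjusted p of 0.05 and 0 by the unmoderated test. Of 3 ZKSCAN genes, which pair KRAB and SCAN domains, 1 was lower and 0 higher, with a median of -0.16, and at an unadjusted p of 0.05 there were 2 lower and 0 higher, with 1 lower by the unmoderated test. Shares over all tested genes were 13.0% lower and 7.72% higher by limma, and 21.0% and 13.0% at an unadjusted p of 0.05. Whether these families differ from the ZNF-named genes was not tested.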

How the data were processed

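RNA of 3 SATalpha and 3 GFP wells was labelled with a 3′ expression kit and hybridised to Affymetrix arrays, per the labels' protocols. The deposited values are on a log2 scale, a base inferred from their range, and the authors had normalized them between arrays. MAS5 and RMA appear in the submitters' processing notes with no role or version, so the method behind the values remains unknown. The number of arrays limits the precision.

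Of 49372 probe sets, 79 were controls, 44988 had 1 gene symbol in the platform annotation, 1832 had several and 2473 were not listed. Each of 18132 genes was represented by its brightest probe set, and the lowest 40% were left out (floor 5.19), which left 10879 genes. SATalpha minus GFP was tested with limma 3.58.1 (R 4.3.3), by lmFit followed by eBayes with its trend option, and Benjamini-Hochberg adjustment over all tested genes, threshold 0.05. SEs are limma's moderated ones. On simulated data for this comparison over 10879 genes, in 10 simulations with 200 changed genes, the test recovered 39.7% of genes changed 1.2-fold, 91.6% changed 1.5-fold and 99.1% changed 2-fold, and 3.77% of calls were false. The simulated errors were independent between genes, and far fewer genes changed than the 20.8% called in the data. These rates therefore need not hold where whole arrays shift together.

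The ZNF-named genes and all lists were chosen with earlier results of these data known. Genes were named by a rule: the 10 largest increases and decreases among called genes whose groups did not overlap, up to 4 called genes of each list by smallest p, the 5 brightest, the 3 on either side of the cutoff, and TRIM28, SETDB1, CBX3, ZNF274, ZNF91 and ZNF207. Alternatives were other filters, quantile normalization, centring on medians, averaged probe sets, leaving out sets open to cross-matching, other level cutoffs, a replicate block, each array left out, no variance trend, array weights and an unmoderated test. A split by protein domains was not analysed here. No genome build is named for the array values, and coordinates and neighbours come from RefSeq (GRCh38.p14).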

Additional observations from a re-analysis of the deposited data

Results flagged for a closer look

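A probe set that entered no comparison, since the annotation lists it for ZNF286A, ZNF286B and TBC1D26 together, was above the control arrays. Its levels were 5.85, 5.53 and 5.98 in SATalpha cells, against 5.35, 5.34 and 5.07 in GFP cells, a log2 difference of 0.532 (limma adjusted p = 0.0129 over all probe sets). Which of the 3 genes gives the signal cannot be told from it. Other sets listed for ZNF286A and ZNF286B alone, with means of 7.63 and 3.59, differed by 0.210 and 0.253. Neither passed (limma adjusted p = 0.155 and 0.183 over all probe sets). The set with all 3 symbols was the only higher one of 55 probe sets that name a ZNF gene and carry several symbols. Of the 55, 3 repeat 1 symbol, and 4 were lower. Of the 4, 2 were listed for ZNF280D with TCF12-DT (-0.86 and -0.65) and had means of 4.64 and 4.46, under the floor of the tested genes, while the brightest 2 of the 6 sets of that pair (means 7.08 and 6.38) differed by 0.024 and 0.037 and did not pass.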

How the results depend on the processing

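Higher and lower calls among the ZNF-named genes stayed within 1.5 times of 17 and 53 with no filter (12 and 42), quantile normalization, centring on all probe sets, no variance trend and array weights. Higher calls numbered 11 with the lowest 60% of genes left out, 11 at a level cutoff of 6.5, 8 with the replicate block, 2 in the unmoderated test and 26 with arrays centred on the tested genes, and 7 to 15 with 1 array left out. Lower calls numbered 32 with the 60% filter, 35 with the mean of all probe sets, 31 with the block, 8 unmoderated, 34 centred on the tested genes, and 28 to 52 with 1 array left out. The ZNF-named median was -0.0172 centred on the tested genes and -0.0798 to -0.0422 with 1 array left out. Over all tested genes, higher and lower calls were 1341 and 899 centred on the tested genes (median 0.0209), 483 and 817 with the block, 246 and 471 unmoderated, and 474 to 898 and 742 to 1622 with 1 array left out. KRAB corepressor genes had 4 higher with array weights, 3 centred on the tested genes, 1 with the mean of all probe sets and 1 without sets that can match several transcripts, and 0 to 3 with 1 array left out. They had 2 lower with the 60% filter, 2 without such sets, 1 unmoderated, and 3 to 6 with 1 array left out. Same-numbered arrays showed no positive agreement (correlations of their deviations -0.0035, -0.239 and -0.287, and 0 of 6 arrays closest to its own number). Whether the wells were handled in pairs is not given by the labels. The replicate block thus rests on a shared number only, and it kept 39 of the 70 calls. The unmoderated test kept 10 of them.

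The sign turned for ZNF346 (0.0029) and SETDB1 (0.024) with the mean of all probe sets, for ZNF451 (0.27) without sets that can match several transcripts, and for ZNF593 (0.025) and ZNF605 (0.018) centred on the tested genes. With 1 array left out it turned for ZNF593 (0.0052 without GFP replicate 1 and 0.0074 without SATalpha replicate 2, range -0.063 to 0.0074), ZNF605 (0.059, 0.042 and 0.040 without GFP replicate 1, GFP replicate 2 and SATalpha replicate 2, range -0.18 to 0.059) and TRIM28 (-0.025 without GFP replicate 2 and -0.0048 without SATalpha replicate 3, range -0.025 to 0.057, and -0.020 with array weights). It also turned for ZNF594 (-0.069 without SATalpha replicate 1, range to 0.23), ZNF622 (-0.010, range to 0.078) and ZNF565 (-0.096, range to 0.18), the last pair without SATalpha replicate 3. Of these, ZNF346 and ZNF451 had been called. Among called genes not named by rule, ZNF302 (0.087) and ZNF317 (0.013) turned with the mean of all probe sets, and ZNF302 (0.39, limma adjusted p = 0.0108) and ZNF592 (0.037) without sets that can match several transcripts. The causes were not tested. Without scanner files, signal over background could not be read, and dim genes set the limit.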
